A study of Mus musculus with 6 samples.

Results

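The CD28 family of T cell receptors and the B7 family of ligands were followed through 10 genes in whole tumours. They were taken by gene symbol: the receptors Pdcd1, Ctla4, Cd28 and Icos, the ligands Cd274, Pdcd1lg2, Cd80, Cd86 and Icosl, and Vsir, whose product can act on either side. All 10 were present among the 57462 genes of each library. The RNA came from 6 tumours of HM1 cells, an ovarian cancer line of the mouse, in a model of early disease. The control group (shControl, labelled wild type) has 3 tumours of cells with a control hairpin. The other group (shST3GAL3, labelled as a knockdown) has 3 tumours of cells with a hairpin that targets St3gal3, the gene of a sialyltransferase. The mouse strain and age, the implantation site and time, and how many hairpins or clones were used, are details not given in the sources used here. Whether the tumours of a group came from separate mice is also not stated, so the p-values measure only how these samples vary, and that variation may be technical.

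A T cell needs a second signal beside its antigen receptor, and the CD28 family supplies or withholds it. CD28 and ICOS are co-stimulatory receptors, bound by CD80 and CD86 and by the ICOS ligand in turn. CTLA-4 takes the same CD80 and CD86 away from CD28, and PD-1, bound by PD-L1 or PD-L2, recruits phosphatases that dampen antigen receptor signalling. In tumours the receptors are made mainly by T cells and the ligands by macrophages and dendritic cells, while PD-L1 is also made by tumour cells under interferon gamma.

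St3gal3 itself stood at 13.79 to 14.03 TPM in the shControl and at 6.77 to 8.44 TPM in the shST3GAL3 libraries. Its groups did not overlap, but the log2 fold change of -0.80 (SE 0.11) did not pass over all genes (limma adjusted p = 0.348). TPM, the share of a gene among the transcripts of its library, is a level per transcript length, so different genes can be compared by it. It carries no read number, so the sequencing depth is unknown. The tumour cell line showed in the keratin genes: Krt8, Krt18 and Krt19 had shControl means of 1223, 1189.5 and 965 TPM. Of the other 4 epithelial markers, Epcam, Krt7 and Pax8 did not reach the level needed for testing, set at 1 TPM in no fewer than 3 libraries. Wt1 reached it, with means of 0.940 and 1.59 TPM and a log2 fold change of 0.34 (SE 0.38), against negative values for the 3 keratins. Of 14207 genes tested with limma on log2(TPM + 1), 0 were higher and 1 was lower in the shST3GAL3 tumours at an adjusted p under 0.05. These are 0% and 0.00704% of the genes. At an unadjusted p under 0.05 there were 1305 higher and 537 lower genes (9.19% and 3.78%). Fibroblast markers summed to 4337, 1230 and 813 TPM in shST3GAL3 1, 2 and 3, against 439 to 711 TPM in the shControl libraries, so that all 3 knockdown tumours were higher and shST3GAL3 1 was the highest.

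The start regions of the PD-1 ligands are printed here because PD-L1 is known for its induction through interferon gamma and lies next to PD-L2, and that of Ctla4 because it holds the same letters as that of Cd274. RefSeq start regions on GRCm38.p6 (250 bases before to 50 after the start) were at hand for 7 of the 10 members. The deposited values rest on GRCm39, so these coordinates serve only to place the sequences. Cd274 lies on chromosome 19 next to Pdcd1lg2, with no coding gene between them, and Cd28, Ctla4 and Icos follow each other on chromosome 1 in the same way (GENCODE M21). Capitals mark a match to GAAANNGAA, the letters of an interferon regulatory factor element, searched on both strands.
Cd274, chr19:29367188-29367487, plus strand: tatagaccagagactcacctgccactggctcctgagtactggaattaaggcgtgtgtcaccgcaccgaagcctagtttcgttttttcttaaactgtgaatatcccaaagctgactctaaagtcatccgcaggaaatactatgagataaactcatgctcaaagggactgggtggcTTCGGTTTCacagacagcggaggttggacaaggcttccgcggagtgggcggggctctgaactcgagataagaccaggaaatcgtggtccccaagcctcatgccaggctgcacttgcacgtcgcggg
Ctla4, chr1:60908775-60909074, plus strand: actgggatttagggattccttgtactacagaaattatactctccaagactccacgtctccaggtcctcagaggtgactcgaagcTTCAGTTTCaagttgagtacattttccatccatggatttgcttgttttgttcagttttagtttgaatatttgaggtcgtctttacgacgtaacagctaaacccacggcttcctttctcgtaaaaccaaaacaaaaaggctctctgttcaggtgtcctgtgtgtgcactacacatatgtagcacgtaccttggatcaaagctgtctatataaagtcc
Pdcd1lg2, chr19:29410669-29410968, plus strand: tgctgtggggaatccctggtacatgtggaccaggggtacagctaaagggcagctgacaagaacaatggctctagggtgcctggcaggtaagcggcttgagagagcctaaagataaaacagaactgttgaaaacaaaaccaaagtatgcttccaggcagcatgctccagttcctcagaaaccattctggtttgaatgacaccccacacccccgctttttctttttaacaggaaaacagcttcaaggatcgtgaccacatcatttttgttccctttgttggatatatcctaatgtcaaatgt
The match in Cd274 reads GAAACCGAA on the minus strand, and that in Ctla4 reads GAAACTGAA, also on the minus strand. The base of the match farthest from the start lies 76 bases before it in Cd274 and 166 bases before it in Ctla4. These 2 of 7 start regions held the letters, as did 8.56% of all 32851 start regions of the same length. None of the 7 held TTCNNNGAA, the letters of a gamma-activated site, which 8.3% of all start regions held. A match describes the letters only. The motifs were chosen after the expression values had been seen.

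All 10 members had a higher mean in the shST3GAL3 than in the shControl tumours, and none passed the test over all genes. For 8 of them every shST3GAL3 tumour lay above every shControl tumour, against 15.7% of all tested genes (7.76% had the groups apart in the other direction). The same 8 had an unadjusted limma p under 0.05, against 9.19% of all tested genes. After adjustment over all genes the limma p was 0.38 for each of them. No member was called, nor was any other gene called as higher. The members had a median log2 fold change of 0.63, against 0.01 over all tested genes. Cd28 entered the test through the group where it was high, which met the filter by itself, while only 1 shControl library reached 1 TPM. Its place among the 8 is therefore no separate evidence of a difference. Icosl and Cd80 overlapped between the groups. The 8 became 5 of 10 with median-ratio scaling, where Pdcd1, Pdcd1lg2 and Vsir overlapped too, and 6 with quantile normalization, where Pdcd1 and Pdcd1lg2 did. The share of all genes was then 11.5% and 10.5%. Scaling also moved the balance over all genes: of those with an unadjusted p under 0.05, 70.8% were higher as deposited, 51.2% with median-ratio scaling and 47.8% with quantile normalization.

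**Figure D1:**
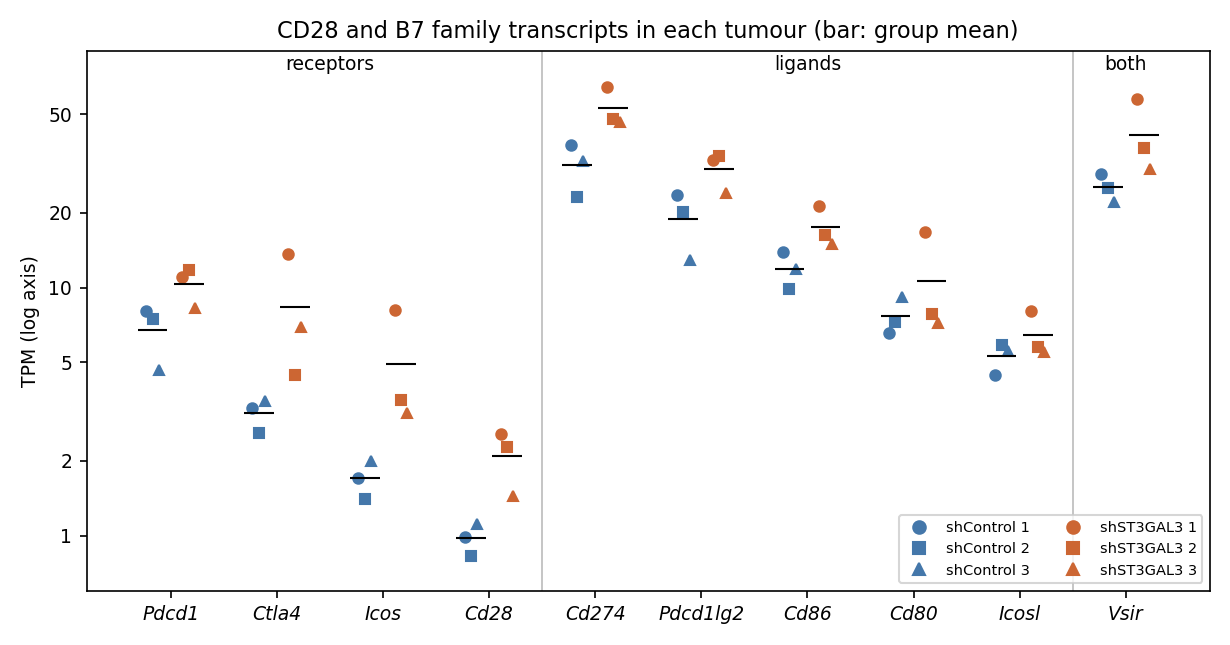
TPM of the 10 members in each of the 6 tumours on a log axis, by role, with shControl in blue, shST3GAL3 in orange and a bar at each group mean. All 4 receptors, Cd274, Pdcd1lg2, Cd86 and Vsir have separate groups, while Cd80 and Icosl overlap.

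Among the receptors, Ctla4 and Icos had the largest log2 fold changes. Ctla4, the inhibitory receptor that competes for CD80 and CD86, measured 3.26, 2.60 and 3.49 TPM in control tumours 1 to 3, against 13.71, 4.42 and 6.93 TPM in knockdown tumours 1 to 3. The shST3GAL3 values thus spread 3.10-fold among themselves, with the highest in shST3GAL3 1, but did not reach down to the control range. Control and knockdown tumours averaged 3.12 ± 0.462 and 8.35 ± 4.81 TPM (SD over 3 libraries, as throughout), with a log2 fold change of 1.07 (SE 0.35, limma adjusted p = 0.38). Without shST3GAL3 1 the log2 fold change was 0.68, and with library weights 0.48.

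Icos, a co-stimulatory receptor that appears on activated T cells and is high on regulatory T cells, measured 1.71, 1.40 and 1.99 TPM in control tumours 1 to 3, against 8.11, 3.53 and 3.11 TPM in knockdown tumours 1 to 3. Again shST3GAL3 1 was the highest, and the other 2 shST3GAL3 tumours were close to each other and above the control range. The means were 1.70 ± 0.295 and 4.92 ± 2.77 TPM, a ratio of 2.89. The log2 fold change was 1.04 (SE 0.32, limma adjusted p = 0.38). It was 0.68 without shST3GAL3 1.

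Pdcd1 encodes PD-1. It measured 8.02, 7.47 and 4.65 TPM in control tumours 1 to 3, against 11.07, 11.75 and 8.26 TPM in knockdown tumours 1 to 3. The lowest shST3GAL3 tumour, 8.26 TPM, was just above the highest shControl tumour, 8.02 TPM. The log2 fold change was 0.57 (SE 0.22, limma adjusted p = 0.38). It was 0.36 without shControl 3, the tumour with the lowest Pdcd1.

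Cd28, the founding co-stimulatory receptor of the family, was the least abundant member. It measured 0.99, 0.83 and 1.11 TPM in control tumours 1 to 3, against 2.56, 2.28 and 1.45 TPM in knockdown tumours 1 to 3. The groups did not overlap, with shST3GAL3 3 nearest to the controls. The means were 0.977 ± 0.140 and 2.10 ± 0.577 TPM, and the log2 fold change was 0.63 (SE 0.20, limma adjusted p = 0.38). On the log2(TPM + 1) scale a gene at this level shows a smaller change than its TPM ratio of 2.15. With a pseudocount of 0.1 in place of 1 the log2 fold change was 1.00.

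Among the ligands, those of PD-1 had the largest log2 fold changes. Cd274, which encodes PD-L1, was the most abundant member, measuring 37.53, 23.21 and 32.35 TPM in control tumours 1 to 3, against 64.49, 47.86 and 46.54 TPM in knockdown tumours 1 to 3. Every shST3GAL3 tumour was well above the highest shControl tumour. The ratio of the means was 1.71, with a log2 fold change of 0.76 (SE 0.20, limma adjusted p = 0.38), and leaving out any 1 library gave 0.57 to 0.91. Of all tested genes, 4.82% had a larger log2 fold change and 1.78% a smaller p. GENCODE M21 lists an antisense gene over Cd274 and another over Pdcd1lg2, and without a stated strand setting for the counting, reads of the partners cannot be told apart.

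Pdcd1lg2, which encodes PD-L2, the second PD-1 ligand, measured 23.61, 20.07 and 12.90 TPM in control tumours 1 to 3, against 32.52, 33.75 and 24.00 TPM in knockdown tumours 1 to 3. The gap between the groups was narrow, from 23.61 to 24.00 TPM, and within each group tumour 3 was the lowest. The log2 fold change was 0.67 (SE 0.23, limma adjusted p = 0.38), and 0.43 without shControl 3.

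CD28 and CTLA-4 share a pair of ligands. Cd86, the ligand kept at rest by macrophages and dendritic cells, measured 13.95, 9.86 and 11.89 TPM in control tumours 1 to 3, against 21.28, 16.21 and 14.93 TPM in knockdown tumours 1 to 3, with no overlap (log2 fold change 0.52, SE 0.17, limma adjusted p = 0.38). Cd80, the ligand induced on activated antigen-presenting cells, measured 6.54, 7.25 and 9.18 TPM in control tumours 1 to 3, against 16.75, 7.81 and 7.22 TPM in knockdown tumours 1 to 3. Only shST3GAL3 1 was above the control range for Cd80, and without it the log2 fold change of 0.34 (SE 0.31, limma adjusted p = 0.61) became -0.01. The ratio of Cd80 to Cd86 differed by -0.18 (log2, SE 0.33; exact two-sided permutation p = 1, adjusted p = 1), so no difference between the pair was shown. Without 1 library it ran from -0.41 (shST3GAL3 1 left out) to -0.05 (shControl 3 left out).

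Icosl, which encodes the ICOS ligand, had the smallest difference of the family. It measured 4.44, 5.88 and 5.56 TPM in control tumours 1 to 3, against 8.05, 5.78 and 5.49 TPM in knockdown tumours 1 to 3. Apart from shST3GAL3 1, the shST3GAL3 tumours lay within the control range. The log2 fold change was 0.23 (SE 0.17, 95% interval -0.19 to 0.65, limma adjusted p = 0.55), and 0.08 without shST3GAL3 1.

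Vsir, which encodes VISTA, a B7-like protein of myeloid cells and T cells that works as ligand and as receptor, was the second most abundant member. It measured 28.63, 25.24 and 22.09 TPM in control tumours 1 to 3, against 57.29, 36.37 and 29.94 TPM in knockdown tumours 1 to 3. The groups did not overlap, with shST3GAL3 3 only slightly above shControl 1. The log2 fold change was 0.64 (SE 0.23, limma adjusted p = 0.38), and 0.38 without shST3GAL3 1. Vsir lies inside Cdh23, a gene of the opposite strand, which was listed at 0.44 to 1.14 TPM over the 6 libraries.

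**Figure D2:**
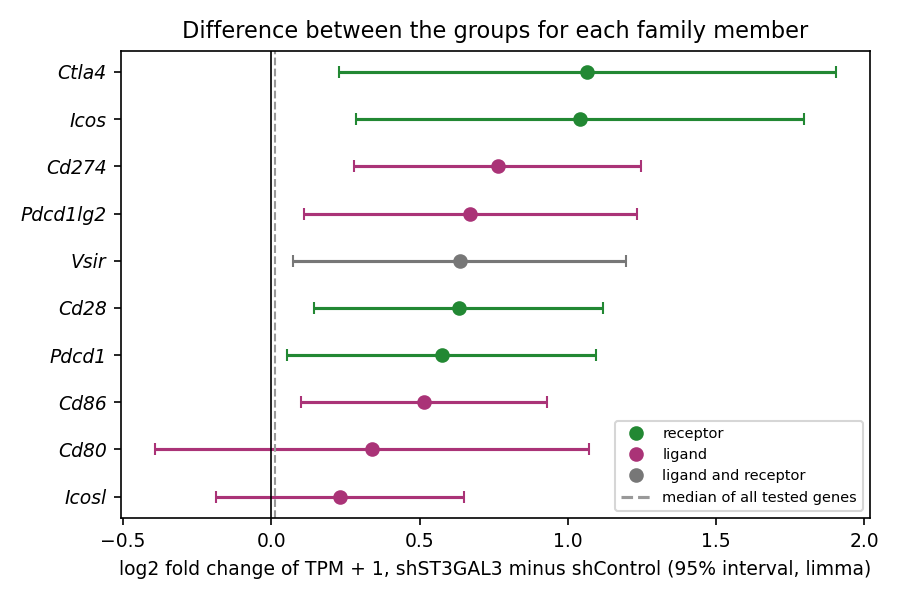
Log2 fold change of TPM + 1 (shST3GAL3 minus shControl) for each member with its 95% interval from limma. A dashed line marks the median of all tested genes at 0.01. The intervals of Cd80 and Icosl include 0, those of the other 8 do not, and none of the 10 passed after adjustment over all genes.

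The order of the levels was nearly the same in both groups. In the shControl tumours it ran from Cd274 (31.0 ± 7.25 TPM) through Vsir, Pdcd1lg2, Cd86, Cd80, Pdcd1, Icosl and Ctla4 to Icos and Cd28. Ranges of neighbours overlapped from Cd274 to Cd86 and from Cd80 to Icosl, and were separate between Cd86 and Cd80 and at each step from Icosl down to Cd28. In the shST3GAL3 tumours the order differed in 1 place, Ctla4 (8.35 ± 4.81 TPM) standing above Icosl (6.44 ± 1.40 TPM), though these ranges overlapped. There the only separate neighbours were Pdcd1lg2 and Cd86, and Icos and Cd28. Ligand transcripts thus outnumbered receptor transcripts in every tumour. The 5 ligands summed to 86.07, 66.27 and 71.88 TPM in shControl 1, 2 and 3 and to 143.09, 111.41 and 98.18 TPM in shST3GAL3 1, 2 and 3. The 4 receptors summed to 13.98, 12.30 and 11.24 TPM in the first group and to 35.45, 21.98 and 19.75 TPM in the second.

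Receptors and ligands were then set side by side. The median log2 fold change was 0.84 over the receptors and 0.52 over the ligands. The receptors include Cd28, which met the filter through the shST3GAL3 group. Summed ligand over summed receptor TPM was 6.16, 5.39 and 6.40 in shControl 1, 2 and 3 and 4.04, 5.07 and 4.97 in shST3GAL3 1, 2 and 3. Each shST3GAL3 tumour thus had fewer ligand transcripts per receptor transcript than any shControl tumour. These sums are a description of the chosen members and were given no test.

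Single ratios of TPM were compared next. Of 24 ratios fixed for comparison, 4 had groups without overlap, all of them ligand to receptor ratios of CD28, CTLA-4 or ICOS. Each had an exact two-sided permutation p of 0.1, the smallest that 3 against 3 samples allow, and an adjusted p of 0.6 over the 24. The same 0.1 is the share of ratios that would have separate groups without any difference, so 4 of 24 shows none. Cd80 and Cd28 each occur in more than 1 of the 4, which are thus not independent. Icosl over Icos stood at 2.60, 4.20 and 2.79 in shControl 1, 2 and 3 and at 0.993, 1.64 and 1.77 in shST3GAL3 1, 2 and 3, a log2 difference of -1.14 (SE 0.34). In shST3GAL3 1 the receptor was thus as abundant as its ligand. Cd80 over Ctla4 was 2.48 ± 0.414 in shControl and 1.34 ± 0.378 in shST3GAL3 tumours, a log2 difference of -0.90 (SE 0.27). Cd80 over Cd28 (log2 difference -0.70, SE 0.30) and Cd86 over Cd28 (-0.52, SE 0.19) were lower too. With a pseudocount of 1 on both terms these 2 became -0.29 and -0.12 and their groups overlapped. Cd28 itself was near 1 TPM. Cd86 over Ctla4 was lower on average (log2 difference -0.72, SE 0.37, exact two-sided permutation p = 0.2, adjusted p = 0.6) but overlapped, with 3.67 in shST3GAL3 2 against 3.41 in shControl 3, and was -0.44 without shST3GAL3 1. Without shST3GAL3 2, Cd80 over Cd28 was -0.45.

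For PD-1 both ligands were measured. Pdcd1lg2 over Pdcd1 stood at 2.94, 2.69 and 2.77 in shControl 1, 2 and 3 and at 2.94, 2.87 and 2.91 in shST3GAL3 1, 2 and 3, the narrowest range of the ligand to receptor ratios. The log2 difference was 0.05 (SE 0.04, exact two-sided permutation p = 0.4, adjusted p = 0.74), and 0.02 to 0.09 without shControl 2 or shControl 1. Cd274 over Pdcd1 varied far more within the groups, at 4.68, 3.11 and 6.96 in shControl 1, 2 and 3 and at 5.83, 4.07 and 5.63 in shST3GAL3 1, 2 and 3. Its log2 difference of 0.13 (SE 0.37, exact two-sided permutation p = 0.7, adjusted p = 0.84) was small against that spread, and became -0.16 without shControl 2.

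**Figure D3:**
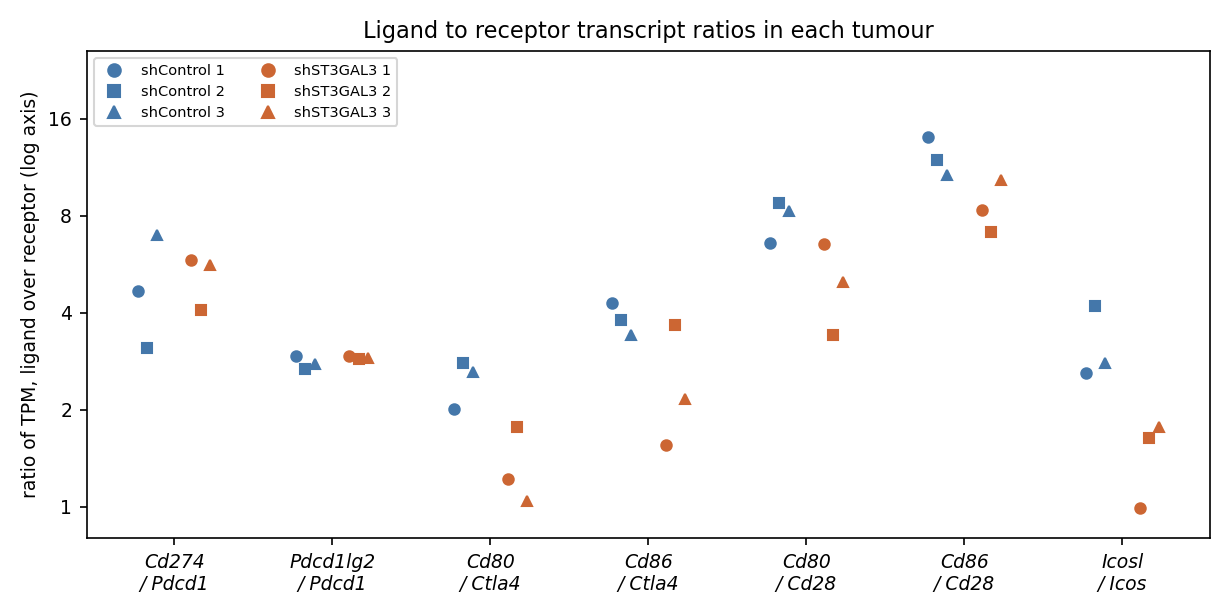
Ratio of ligand to receptor TPM in each tumour on a log axis, for 7 pairs, with shControl in blue and shST3GAL3 in orange. Cd80 over Ctla4, Cd80 over Cd28, Cd86 over Cd28 and Icosl over Icos are lower in every shST3GAL3 tumour, while Pdcd1lg2 over Pdcd1 stays between 2.69 and 2.94 in all 6.

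In bulk tumours more cells of a type and more transcript per cell cannot be told apart, so the members were set beside markers of the cells that make them. Of 10 T cell markers all had a positive log2 fold change, and their summed level was 72.8 to 104 TPM in shControl and 88.3 to 179 TPM in shST3GAL3 tumours. The 6 regulatory T cell markers summed to 13.1 to 18.1 TPM and 21.2 to 46.1 TPM, the 8 macrophage markers to 1081 to 1294 TPM and 1284 to 2276 TPM, and the 8 dendritic cell markers to 53.4 to 73.4 TPM and 84.8 to 190 TPM. The 5 B cell markers were low but also separate, at 0.490 to 0.880 TPM and 1.16 to 6.81 TPM in sum. The 1 of them tested, Cd79b, entered the test only through the shST3GAL3 group, since 0 shControl libraries reached 1 TPM. Its log2 fold change of 0.94 (SE 0.31) is therefore no separate evidence of a difference. The summed markers of stroma and blood were separate between the groups as well. The median difference was 1.63 (log2) over the fibroblast markers, 5 of 6 being separate. The 5 endothelial markers summed to 41.0 to 55.4 TPM and 78.0 to 195 TPM, with a median of 1.03 and all 5 separate. The 5 blood markers summed to 121 to 164 TPM and 185 to 318 TPM, with a median of 0.79 over the 4 tested, of which 2 were separate. These 3 medians were above the 0.63 of the members. The medians of the T cell, regulatory T cell, macrophage and dendritic cell markers were 0.62, 0.86, 0.52 and 0.59. Of the tested markers of these types, 3 of 10, 3 of 4, 3 of 8 and 4 of 8 were separate and higher, against 15.7% of all tested genes. Among the separate dendritic cell markers, Flt3 entered the test only through the shST3GAL3 group, since 0 shControl libraries reached 1 TPM. Its difference, which also counts in the dendritic cell median, is no separate evidence either. Of the NK cell and neutrophil markers 0 of 4 and 0 of 4 were separate, with medians of 0.32 and 0.08. The 7 epithelial markers summed to 3191 to 3670 TPM and 1759 to 3191 TPM. No marker was at 0 in all 6 libraries, and beyond the ratios that follow the part of cell content in the members' differences was not tested.

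The receptor genes were set relative to the mean of Cd3d, Cd3e and Cd3g, which encode chains of the T cell receptor complex (Cd3 below). Cd3g weighs most in it, with a shControl mean of 16.1 TPM against 3.53 (Cd3d) and 6.74 (Cd3e). Its log2 fold change was 0.40, against 0.77 (Cd3d) and 0.63 (Cd3e). Ratios to other genes of the T cell list, such as Cd4 (log2 fold change 1.27, SE 0.33), were not computed. Pdcd1 over Cd3 was 0.704, 0.994 and 0.619 in shControl 1, 2 and 3 and 0.703, 0.665 and 1.09 in shST3GAL3 1, 2 and 3, with overlapping groups (log2 difference 0.08, SE 0.31, exact two-sided permutation p = 0.7, adjusted p = 0.84). Icos over Cd3 was 0.150, 0.186 and 0.265 in shControl 1, 2 and 3 and 0.515, 0.200 and 0.412 in shST3GAL3 1, 2 and 3 (log2 difference 0.84, SE 0.48, exact two-sided permutation p = 0.2, adjusted p = 0.6). In shST3GAL3 2 this ratio lay among the controls, and Ctla4 over Cd3, at 0.250, was below every shControl tumour. In the other 2 shST3GAL3 tumours Ctla4 over Cd3 was 0.871 and 0.918, against 0.286 to 0.464 in shControl (log2 difference 0.71, SE 0.65, exact two-sided permutation p = 0.4, adjusted p = 0.74). That difference was 0.38 without shST3GAL3 3 and 1.32 without shST3GAL3 2, and that of Icos over Cd3 was 0.56 without shST3GAL3 1. Cd28 over Cd3 was 0.087, 0.110 and 0.148 in shControl 1, 2 and 3 and 0.163, 0.129 and 0.192 in shST3GAL3 1, 2 and 3. The groups overlapped (log2 difference 0.50, SE 0.28, exact two-sided permutation p = 0.2, adjusted p = 0.6). With a pseudocount of 1 on both terms the difference of Cd28 over Cd3 was 0.11. Over Foxp3, the master regulator of regulatory T cells, Ctla4 was 2.69 ± 0.927 in shControl and 2.74 ± 0.559 in shST3GAL3 tumours (log2 difference 0.07, SE 0.35, exact two-sided permutation p = 0.9, adjusted p = 0.98).

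Relative to Ptprc, which encodes the leukocyte antigen CD45, the ligands and Vsir were compared. Ptprc stood at 27.85 to 28.45 TPM in the shControl libraries and at 47.76, 42.73 and 28.05 TPM in shST3GAL3 1, 2 and 3. In shST3GAL3 3 Ptprc was at the control level, Cd274 was 46.54 TPM, and Cd274 over Ptprc was 1.66. In the other 2 shST3GAL3 tumours that ratio was 1.35 and 1.12, against 1.34, 0.833 and 1.14 in shControl 1, 2 and 3 (log2 difference 0.33, SE 0.26, exact two-sided permutation p = 0.4, adjusted p = 0.74). The groups overlapped, and the difference was 0.14 without shControl 2. Icosl and Cd80 over Ptprc had log2 differences of -0.18 (SE 0.20) and -0.08 (SE 0.30), that of Icosl being -0.04 without shST3GAL3 2 and -0.31 without shST3GAL3 3, and none of the 6 ratios to Ptprc had separate groups. Over Csf1r, the growth factor receptor gene of macrophages, Vsir was 0.489 ± 0.0779 in shControl and 0.394 ± 0.0381 in shST3GAL3 tumours (log2 difference -0.30, SE 0.16, exact two-sided permutation p = 0.2, adjusted p = 0.6), and the difference was -0.20 without shControl 3.

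**Figure D4:**
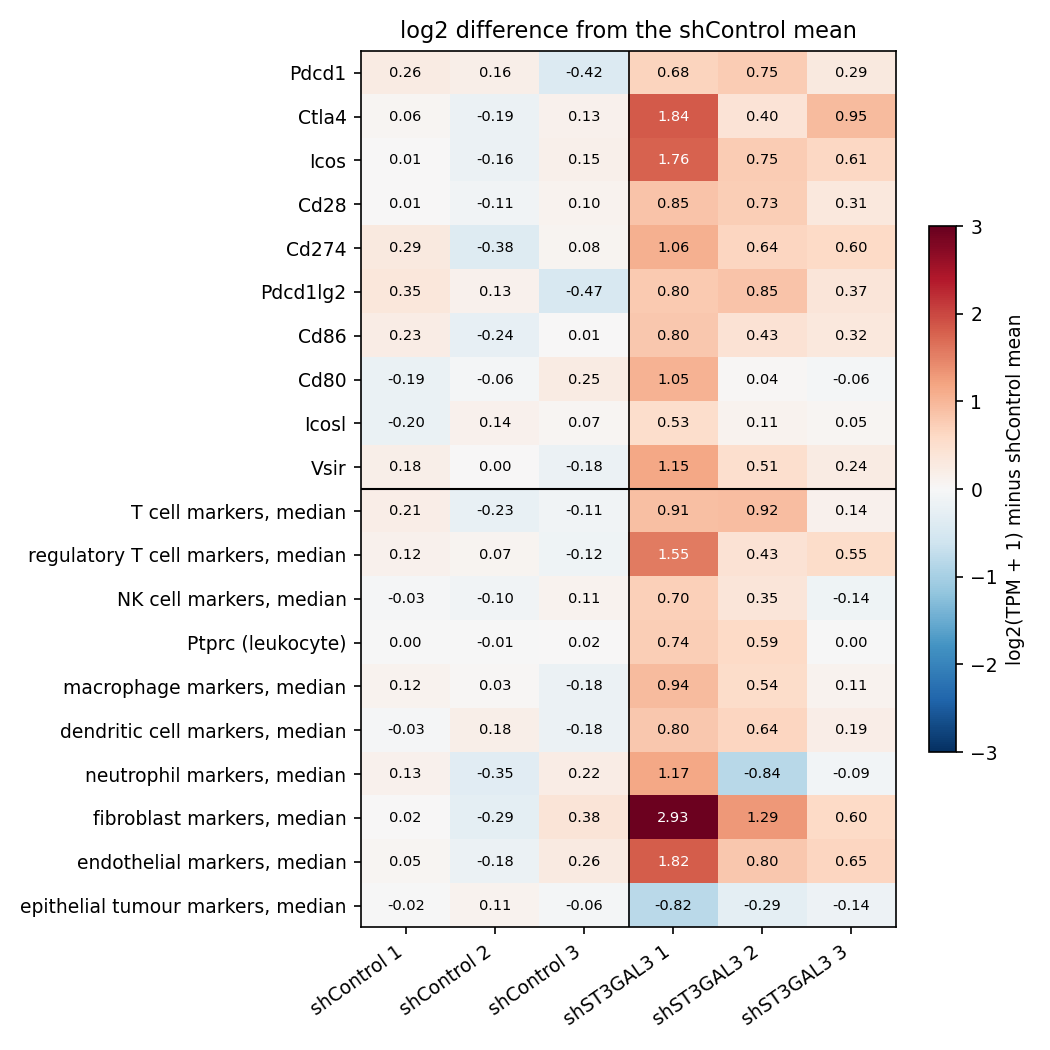
Difference of log2(TPM + 1) from the shControl mean for each member (above the line) and the median over tested markers of each cell type (below it), by tumour, in log2 units from blue (lower) to red (higher). In shST3GAL3 3 the members run from -0.06 (Cd80) to 0.95 (Ctla4), and the marker rows from -0.14 (NK cell and epithelial) through 0.00 (Ptprc) and 0.14 (T cell) to 0.55 (regulatory T cell), 0.60 (fibroblast) and 0.65 (endothelial).

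Within the shST3GAL3 group most members shared their highest and lowest tumour. Of the 10 members, 8 were highest in shST3GAL3 1 and 2, Pdcd1 and Pdcd1lg2, in shST3GAL3 2, and 9 were lowest in shST3GAL3 3. Ctla4 was the exception, lowest in shST3GAL3 2. The median log2 difference from the shControl mean over the members was 0.95, 0.57 and 0.31 in shST3GAL3 1, 2 and 3.

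Other genes of the pathway were counted in fixed lists, and in each of them 0 genes passed over all genes tested (limma). At an unadjusted p under 0.05 the lists had 9 higher genes (interferon gamma route), 7 (signalling), 1 (trafficking), 1 (other B7 proteins and partners) and 5 (other checkpoints, with 1 lower), against 9.19% higher and 3.78% lower over all tested genes. The counts of separate groups that follow stand against 15.7% above and 7.76% below over all tested genes, of which 52.7% lay above 0 on the log2 scale (median 0.01). The 15.7% became 11.5% with median-ratio scaling and 10.5% with quantile normalization. On the interferon gamma route to PD-L1, 11 of 12 genes had a positive log2 fold change and 9 had separate groups, all higher, with a median of 0.42. Socs1, a feedback inhibitor, was at 5.54 ± 0.622 TPM in shControl and 10.1 ± 0.849 TPM in shST3GAL3 tumours. Irf1, an interferon regulatory factor, was at 185 ± 22.4 and 276 ± 35.8 TPM, with all shST3GAL3 tumours above all shControl tumours. Irf2, of the same factor family, was at 39.8 ± 1.94 and 48.1 ± 3.00 TPM. Jak2, a kinase gene of the interferon gamma receptor, was the only gene of the list with a negative value, -0.06 (SE 0.08).

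Of the signalling genes below the receptors, 19 of 21 were tested, 18 had a positive log2 fold change and 9 had separate groups, all higher. The median was 0.45. Those with the smallest p were the adaptor gene Lcp2 (17.2 ± 1.20 and 27.0 ± 7.01 TPM), the ubiquitin ligase gene Cblb (10.5 ± 0.831 and 15.5 ± 3.29 TPM), the kinase gene Zap70 (3.48 ± 0.675 and 6.07 ± 1.59 TPM) and Fyn (8.68 ± 1.30 and 17.4 ± 7.86 TPM). Of the phosphatase genes tied to PD-1, Ptpn6 was higher by 0.29 on the log2 scale (SE 0.14) and Ptpn11, the main one recruited, by 0.08 (SE 0.08).

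Genes for the trafficking and stability of PD-L1 and CTLA-4 were near the value of all genes, with a median of 0.04 over 8 tested. Cmtm6, which keeps PD-L1 at the cell surface, was at 38.9 ± 0.599 and 41.0 ± 3.69 TPM (log2 fold change 0.07, SE 0.09), and Lrba, which recycles CTLA-4, at 4.63 ± 0.465 and 4.86 ± 0.181 TPM. Marchf1, a ubiquitin ligase gene acting on CD86, was higher in all 3 shST3GAL3 tumours, at 7.41 ± 0.241 and 10.7 ± 2.08 TPM. Of the other B7 proteins and partners, 3 of 8 were tested. Cd276, which encodes B7-H3, was abundant and close between groups, at 47.9 ± 0.708 and 49.4 ± 3.81 TPM (log2 fold change 0.04, 95% interval -0.15 to 0.24). Selplg, a binding partner of VISTA, was at 26.6 ± 1.76 and 48.1 ± 22.7 TPM. Vtcn1, the gene of B7-H4, was at 0.05 TPM or less in all libraries.

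Checkpoints outside the family made up the last list. Of 14 genes, 12 had a positive log2 fold change, 5 had all shST3GAL3 tumours above all shControl tumours and 1, Ceacam1, had them below, with a median of 0.50. Their smallest p belonged to Tigit, at 16.70 to 18.82 TPM in shControl and 26.21 to 27.95 TPM in shST3GAL3 tumours. No test of the family against this list was made.

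The pattern across the 6 libraries was also compared by the root mean square difference of centred log2(TPM + 1) values, a distance in log2 units. Within the family Pdcd1 and Pdcd1lg2 were each other's nearest member, at 0.07, and Ctla4 and Icos were each other's, at 0.20. Pdcd1 and Ctla4, both inhibitory receptors, were the farthest pair of the family, at 0.58. Outside the family the gene nearest to Pdcd1 was Itgax, which encodes the dendritic cell and macrophage integrin CD11c, at 0.07, followed by Gm16042 (0.12) and Dnase1l3 (0.12). Nearest to Ctla4 were the endothelial gene Vwf (0.11), Clec4e (0.13) and Atp8b1 (0.14), and nearest to Cd274 the predicted genes Gm12976 (0.06) and Gm12928 (0.08) and Olfml2a (0.08). Olfml2a, at 0.79 TPM or less in the shControl libraries, was among the tested genes only through the shST3GAL3 group. The distances are a description and carry no test.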

How the data were processed

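Values were those the authors deposited, TPM per gene with 2 decimals, 1 file per tumour. Each library's values sum to the total that defines the unit. Per the submitters' processing notes, fastp, HISAT and RSEM were used, with GRCm39. Tool versions, annotation release, parameters and strandedness: not given in the sources used here. Samples were grouped by title. The 14207 genes that reached 1 TPM in no fewer than 3 libraries were tested with limma 3.58.1 (R 4.3.3, mean-variance trend) on log2(TPM + 1), group alone, with Benjamini-Hochberg adjustment over all genes and a threshold of 0.05. Fold changes on this scale understate changes of low genes. Errors are SD over 3 libraries, limma's moderated SE for a log2 fold change, and the SE of the difference for log2 ratios. Ratios of TPM within a library were compared by exact two-sided permutation tests (scipy 1.17.1). Only the limma procedure was tested on simulated data, with independent values per gene, and its power at the sizes of the members' changes is not given here. Members, lists and ratios were chosen with earlier results of these data known. Named genes are all members, up to 4 genes per pathway list with the smallest p, and the 3 nearest in pattern. Ptpn6, Ptpn11, Jak2, Cmtm6, Lrba, Cd276, Vtcn1, Ceacam1, Wt1, Cd79b, Flt3 and Cd4 were named for their role or after their values were seen. The list entries March1 and Csn5 are not symbols of the files, which hold Marchf1 and Cops5. Start region sequences and motif shares come from RefSeq (GRCm38.p6). Alternatives were other pseudocounts, filters, scalings, library weights, a block and leaving out each library.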

Additional observations from a re-analysis of the deposited data

How the results depend on the processing

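Over 15 alternatives the log2 fold changes of 9 members kept their sign, Cd80 being the exception, and no member was called except with library weights. With library weights, 2 members, Icos (limma adjusted p = 0.0443, the others reaching 0.662) and Cd28 (0.0448, the others reaching 0.662), and 695 of all genes were called; the weights ran from 0.179 for shST3GAL3 1 to 6.17 for shST3GAL3 2, and their estimation stopped short of its convergence tolerance. Cd28 had met the filter through the shST3GAL3 group. With a pseudocount of 0.1 or 0.5, 2 genes were called in place of 1. The number of members above the control range was 5 with median-ratio scaling. Without any 1 library, the number of all genes called ranged from 1 to 3 and no member was called. The number of members above the control range stayed at 8, but this is easier to meet with fewer libraries. Of all 14207 genes, 2864 to 3276 were then above the control range, against 2232 with all 6 libraries. The medians ranged from 0.60 to 0.96 for receptors and from 0.37 to 0.63 for ligands. The log2 fold change of Cd80 ranged from -0.013 to 0.54. Over the same fits, log2 differences that changed sign ranged from -0.16 to 0.42 for Cd274/Pdcd1, -0.067 to 0.67 for Ctla4/Cd28, -0.18 to 0.38 for Cd274/Pdcd1lg2, -0.15 to 0.28 for Pdcd1/Cd3, -0.22 to 0.31 for Ctla4/Foxp3, -0.092 to 0.47 for Icos/Foxp3, -0.014 to 0.43 for Pdcd1lg2/Ptprc, -0.31 to 0.16 for Cd80/Ptprc and -0.028 to 0.22 for Cd86/Ptprc. The cause was not tested. The fit with the replicate number as a block called 0 members and 1 gene. Its SE was larger than that of the main fit for Cd28, Cd80 and Icosl. For the other members it was smaller, as for Pdcd1lg2 (0.12 against 0.23). Deviations of same-numbered tumours had correlations of 0.014, -0.08 and 0.04 over 14207 genes, and those of differently numbered tumours ran from -0.123 to 0.128. With 3 tumours a group these values cannot decide whether the numbers pair the samples. Depth is unknown, and 3 tumours a group limit the precision.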
